A study of Homo sapiens with 6 samples.

Results

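A set of 9 genes of interferon and cytokine signalling was followed after silencing of RNF31: the interferon regulatory factors IRF1, IRF2, IRF3, IRF7 and IRF9, the signal transducers STAT2 and STAT3, and the suppressors of cytokine signalling SOCS1 and SOCS3. They were chosen by symbol from the deposited expression tables, and all 9 were found among the 17645 genes listed. The cells are labelled MDAMB231, the widely used line of human breast cancer that lacks both hormone receptors and HER2 amplification (triple negative). The cells had been transfected for 48 h with a control siRNA (siControl, 3 libraries) or with siRNA against RNF31 (siRNF31, 3 libraries). No other treatment, and in particular no interferon or cytokine, is given in the labels for either group. RNF31 encodes HOIP, a ligase that builds linear ubiquitin chains and acts in NF-kB signalling, and the series asks what it does in this type of cancer.

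Interferons and cytokines of the IL6 family bind receptors that carry JAK kinases, and these kinases phosphorylate STAT proteins. STAT2 joins IRF9 in ISGF3, the complex that switches on interferon-stimulated genes, while STAT3 is the main effector of IL6-type cytokines. IRF3 and IRF7 are activated by phosphorylation downstream of nucleic acid sensors and drive interferon production. IRF1 is an inducible activator of many of the same promoters, and IRF2 binds the same sites and often opposes it. SOCS1 and SOCS3 are induced by STATs and shut the receptors down, so their mRNA levels are commonly read as a trace of recent signalling.

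A few promoters show where IRF and STAT proteins could read this group of genes. They belong to the member with the largest rise (IRF1), the member with the largest fall (SOCS1) and the gene next to RNF31 (IRF9). Among the members' promoters that could be matched, only these held a match to a searched pattern. Each covers 250 bases before and 50 bases after the annotated start, in transcript direction, as given by RefSeq for GRCh38.p14. Capitals mark a match to the gamma-activated site that STAT dimers bind (TTCNNNGAA) in IRF1 and IRF9, and to the core of the interferon-stimulated response element that IRFs and ISGF3 bind (GAAANNGAAA) in SOCS1.

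IRF1 (chr5:132490724-132491023, minus strand): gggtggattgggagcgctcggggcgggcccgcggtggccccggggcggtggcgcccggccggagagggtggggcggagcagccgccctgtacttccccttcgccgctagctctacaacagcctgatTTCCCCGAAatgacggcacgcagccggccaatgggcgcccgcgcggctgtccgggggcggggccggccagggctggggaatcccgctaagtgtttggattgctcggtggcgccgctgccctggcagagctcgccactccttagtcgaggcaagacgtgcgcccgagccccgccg
SOCS1 (chr16:11256155-11256454, minus strand): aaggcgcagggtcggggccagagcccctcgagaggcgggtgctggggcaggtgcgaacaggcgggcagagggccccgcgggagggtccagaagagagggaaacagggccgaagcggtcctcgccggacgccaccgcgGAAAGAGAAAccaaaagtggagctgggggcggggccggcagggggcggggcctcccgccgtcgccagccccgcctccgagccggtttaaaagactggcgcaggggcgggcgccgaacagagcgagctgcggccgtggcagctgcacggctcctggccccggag
IRF9 (chr14:24161015-24161314, plus strand): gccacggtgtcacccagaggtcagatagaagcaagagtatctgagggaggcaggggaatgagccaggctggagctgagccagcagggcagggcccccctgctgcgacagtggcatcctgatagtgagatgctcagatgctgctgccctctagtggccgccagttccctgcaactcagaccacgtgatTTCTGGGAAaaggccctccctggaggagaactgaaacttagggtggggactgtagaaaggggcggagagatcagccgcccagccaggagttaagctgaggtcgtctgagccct

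The match in IRF1 begins 124 bases before the start and the match in IRF9 begins 63 bases before it. This pattern is the same on both strands, and no match overlapped another. The match in SOCS1 begins 113 bases before the start and lies on the transcript strand. Over 35116 promoters of the same length, searched on both strands, 7.66% held the gamma-activated site and 3.57% the response element core. The pattern GGGANNTTCC, which covers only some kappaB sites, was found in 1.61% of them and in none of the members' matched promoters. Other forms were not searched for. The IRF1 window holds ggggaatccc, which lies outside this pattern, so absence of a kappaB site is not shown. RefSeq promoters were matched for 6 of the 9 genes, and those of STAT2 and STAT3 and both of SOCS3 held no match to any searched pattern. Entries for IRF2, IRF3 and IRF7 were not matched. A match describes the sequence and does not show binding.

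RNF31 itself measured 11.34, 10.70 and 10.57 FPKM in siControl and 1.92, 2.12 and 1.86 in siRNF31, so the target was low in every library labelled siRNF31. FPKM are fragments scaled to transcript length and to the mapped fragments of the library, and their totals per library ran from 421755 to 463457. Of the markers looked up for the labelled cells, VIM, CD44, ZEB1, AXL and PLAU were expressed in every library, and ESR1, PGR, GATA3, FOXA1, CDH1 and EPCAM summed to at most 2.59 FPKM. The 5 fibroblast markers COL1A1, COL1A2, DCN, LUM and PDGFRB were also expressed in every library, and summed to between 1857 and 1920 FPKM in siControl and between 1477 and 1520 in siRNF31. Strong expression of these fibroblast genes goes against the label of a breast carcinoma line. Myeloid markers summed to between 40.52 and 49.77 FPKM in siControl and between 35.9 and 40.69 in siRNF31, most of it CD68, and endothelial markers to at most 1.84. The part of these markers in the results was not tested. CD2 was listed at 0 in all siControl libraries and at no more than 0.03 in siRNF31, and PTPRC, the pan-leukocyte marker, stayed at or below 0.51. Along the second principal component, which held 7.18% of the variance, siControl replicate 1 and siRNF31 replicate 3 stood apart from the other 4 libraries.

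Of the 9 genes, 5 rose after RNF31 silencing (IRF1, IRF7, IRF9, STAT3 and SOCS3), 2 fell (IRF2 and SOCS1) and 2 did not pass the test (IRF3 and STAT2). A gene counts as risen or fallen at an adjusted p below 0.05 in limma, fitted to log2(FPKM + 1) over 11346 tested genes with Benjamini-Hochberg adjustment. Such calls were common, with 63.1% of all tested genes called, 26.6% higher and 36.5% lower, so 7 of 9 members called is not by itself a result about them. The groups did not overlap for 7 of the 9 members and for 67.2% of tested genes. The median log2 fold change was 0.31 over the 9 members and -0.060 over all tested genes. All 9 genes were at 1 FPKM or more in all 6 libraries, so none entered the test through 1 group alone. These are bulk libraries, in which fewer cells that express a gene and less RNA per cell cannot be told apart.

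**Figure D1:**
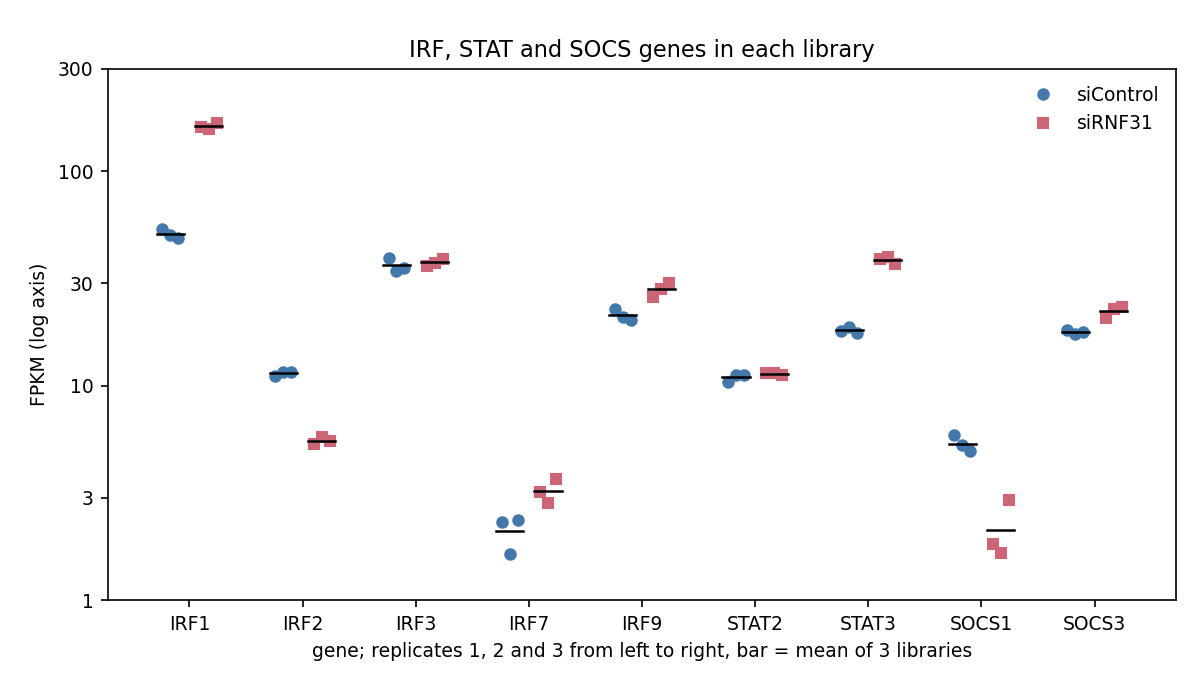
FPKM of the 9 genes in each library, on a log axis, with siControl as circles, siRNF31 as squares and the mean of 3 libraries as a bar. IRF1 lies between 48.67 and 54.02 in siControl and between 157.53 and 167.30 in siRNF31, while the points of IRF3 overlap between the groups.

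IRF1 showed the largest change of the 9. It measured 54.02, 50.35 and 48.67 FPKM in siControl and 161.35, 157.53 and 167.30 in siRNF31. All 3 silenced libraries lay far above all 3 controls, with little spread inside either group. The mean rose from 51.0 ± 2.74 to 162 ± 4.92 FPKM (SD, n = 3 each), a ratio of 3.18. This is a log2 fold change of 1.65 (standard error 0.059, limma adjusted p = 1.695e-07), and only 0.873% of tested genes had a higher one. IRF1 was already the most abundant of the 9 in siControl and stayed so.

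IRF2, the factor that competes with IRF1 for its sites, moved the other way. Its values were 11.11, 11.66 and 11.63 FPKM in siControl and 5.37, 5.75 and 5.53 in siRNF31. Every silenced library held less than every control, and the groups were far apart relative to their spread. The mean fell from 11.5 ± 0.309 to 5.55 ± 0.191 FPKM, which left 48.4% of the siControl level (log2 fold change -0.93, standard error 0.059, limma adjusted p = 3.03e-06). Taken within each library, and so free of any scaling between libraries, the ratio of IRF1 to IRF2 was 4.86, 4.32 and 4.19 in siControl and 30.1, 27.4 and 30.3 in siRNF31. These groups did not overlap, and the two-sided exact permutation test gave p = 0.1, the smallest that 3 against 3 libraries allows.

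IRF3 and IRF7 are the virus-activated factors. IRF3, which is made constitutively and regulated through phosphorylation, measured 39.46, 34.44 and 35.58 FPKM in siControl and 36.12, 37.48 and 39.16 in siRNF31. The ranges overlapped, with the highest value of all in a control. Its log2 fold change was 0.043, with a 95% interval from -0.11 to 0.19 (limma, adjusted p = 0.59), so any difference was small beside that of IRF1. The IRF3 gene overlaps BCL2L12 in the RefSeq annotation, and whether counting used the strand is not given in the sources used here, so reads of the 2 genes may not be told apart.

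IRF7, the inducible factor of interferon production, was the least abundant of the 9 in siControl. It measured 2.31, 1.64 and 2.37 FPKM there and 3.21, 2.83 and 3.66 in siRNF31. The groups were close but did not overlap. The mean rose from 2.11 ± 0.405 to 3.23 ± 0.416 FPKM, a ratio of 1.53 (log2 fold change 0.45, standard error 0.11, limma adjusted p = 0.0082). On the log2(FPKM + 1) scale the change of so low a gene is understated, and with a pseudocount of 0.1 it was 0.61.

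IRF9 and STAT2 encode parts of ISGF3. IRF9 measured 22.85, 20.99 and 20.30 FPKM in siControl and 25.91, 28.26 and 30.28 in siRNF31. Each silenced library exceeded each control, by a modest margin. The mean rose from 21.4 ± 1.32 to 28.2 ± 2.19 FPKM (ratio 1.32, log2 fold change 0.38, standard error 0.072, limma adjusted p = 0.0018). STAT2 measured 10.38, 11.27 and 11.27 FPKM in siControl and 11.44, 11.43 and 11.27 in siRNF31, and the groups met at 11.27. Its log2 fold change was 0.049, with a 95% interval from -0.085 to 0.18 (limma, adjusted p = 0.49).

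IRF9 is the next protein-coding gene after RNF31 on chromosome 14 in the RefSeq order. The targeted RNF31 was thus at 18.1% of its siControl level while the gene beside it was at 132%. REC8, a meiotic cohesin gene and the neighbour on the other side of IRF9, rose from 0.973 ± 0.067 to 1.69 ± 0.061 FPKM (limma log2 fold change 0.45, adjusted p = 0.00040). Its siControl values of 0.99, 1.03 and 0.90 FPKM lie near the 1 FPKM limit for testing.

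STAT3, the transducer of IL6-type cytokines, had the second largest rise of the 9. It measured 18.04, 18.87 and 17.66 FPKM in siControl and 39.19, 39.77 and 36.98 in siRNF31. The lowest silenced library stood well above the highest control. The mean rose from 18.2 ± 0.619 to 38.7 ± 1.47 FPKM, a ratio of 2.13 (log2 fold change 1.05, standard error 0.055, limma adjusted p = 1.05e-06), and 3.26% of tested genes had a higher log2 fold change. The STAT genes beside it on chromosome 17 fell. STAT5A, its direct neighbour and a transducer of growth hormone, prolactin and colony-stimulating factor signals, measured 7.87, 7.10 and 7.51 FPKM in siControl and 1.92, 2.36 and 2.03 in siRNF31 (limma log2 fold change -1.45, adjusted p = 1.13e-06). STAT5B, beyond STAT5A, went from 14.4 ± 0.547 to 10.4 ± 0.089 FPKM (log2 fold change -0.43, adjusted p = 0.00020). STAT5A and STAT5B are close paralogs, so how reads were divided between them is uncertain. CAVIN1, a caveolar coat gene on the other side of STAT3, rose from 236 ± 9.63 to 349 ± 13.4 FPKM (log2 fold change 0.56, adjusted p = 6.85e-05).

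The inhibitors SOCS1 and SOCS3 moved in opposite directions. SOCS1, which blocks JAK kinases at interferon receptors, measured 5.87, 5.31 and 4.97 FPKM in siControl and 1.83, 1.66 and 2.92 in siRNF31. All silenced libraries were below all controls, and siRNF31 replicate 3, one of those that stood apart, was the highest of its group. The mean fell from 5.38 ± 0.455 to 2.14 ± 0.684 FPKM, or 39.7% of siControl (log2 fold change -1.04, standard error 0.14, limma adjusted p = 0.00025). Without siControl replicate 1 and siRNF31 replicate 3 the log2 fold change was -1.16 (adjusted p = 1.497e-06). SOCS3, which blocks signalling through the IL6 receptor subunit gp130, measured 18.23, 17.46 and 17.73 FPKM in siControl and 20.69, 22.81 and 23.42 in siRNF31. The silenced libraries all lay above the controls, by a small step. The mean rose from 17.8 ± 0.391 to 22.3 ± 1.43 FPKM (ratio 1.25, log2 fold change 0.31, standard error 0.061, limma adjusted p = 0.0023). A divergent non-coding gene, SOCS3-DT, overlaps SOCS3 in the RefSeq annotation, so its reads may be included if strand was not used.

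**Figure D2:**
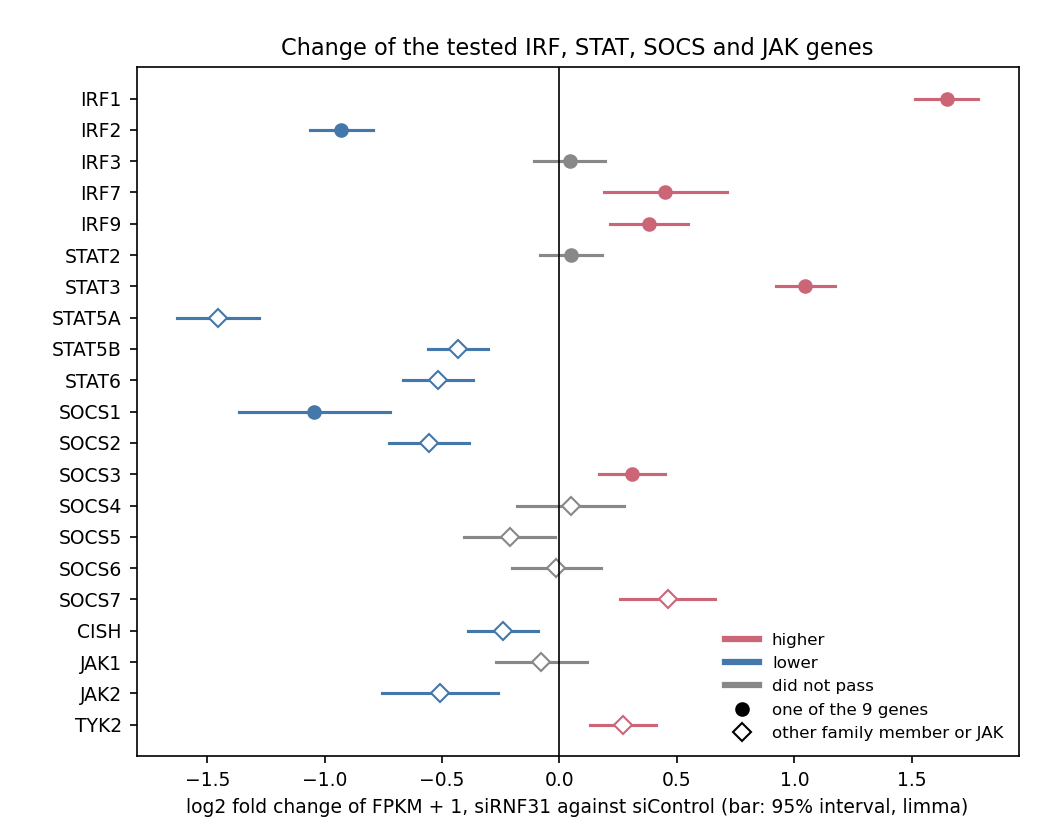
Log2 fold change of FPKM + 1 with its 95% interval from limma for the tested IRF, STAT, SOCS and JAK genes shown, with filled circles for the 9 genes and open diamonds for other family members and the JAK kinases. IRF1 at 1.65 and STAT5A at -1.45 mark the ends of the range, and the intervals of IRF3 and STAT2 include 0.

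In siControl the order of mean levels was IRF1, IRF3, IRF9, STAT3, SOCS3, IRF2, STAT2, SOCS1 and IRF7. The ranges of STAT3 and SOCS3 overlapped, as did those of IRF2 and STAT2, so their order within these pairs is not fixed by these libraries. In siRNF31 the order was IRF1, STAT3, IRF3, IRF9, SOCS3, STAT2, IRF2, IRF7 and SOCS1, with overlapping ranges for STAT3 and IRF3 and for IRF7 and SOCS1. By mean level STAT3 went from place 4 to place 2, and SOCS1 from above IRF7 to below it. Because of the overlaps, these exact places are not fixed by these libraries.

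Shares within each family do not depend on the scaling of the libraries. IRF1 made up 41.5 ± 0.613% of the summed FPKM of IRF1, IRF2, IRF3, IRF4, IRF5, IRF7, IRF8 and IRF9 in siControl and 68.5 ± 0.892% in siRNF31. The sum itself went from 123 ± 6.32 to 237 ± 8.03 FPKM, and the share of IRF3 went from 29.7 ± 0.772% to 15.9 ± 0.301% although its level differed little. IRF4, IRF5 and IRF8 stayed at or below 0.36 FPKM in every library and were not tested. STAT3 went from 24.9 ± 0.956% to 49.8 ± 1.21% of the summed FPKM of STAT2, STAT3, STAT4, STAT5A, STAT5B and STAT6, and STAT5A from 10.3 ± 0.486% to 2.71 ± 0.293%. SOCS3 went from 24.7 ± 1.53% to 32.7 ± 2.33% of the summed SOCS and CISH FPKM, and SOCS1 from 7.49 ± 0.966% to 3.14 ± 1.03%. For each of these shares the groups did not overlap, and the two-sided exact permutation test gave p = 0.1, the smallest that 3 against 3 libraries allows (0.157 after Benjamini-Hochberg adjustment over the 22 shares computed).

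**Figure D3:**
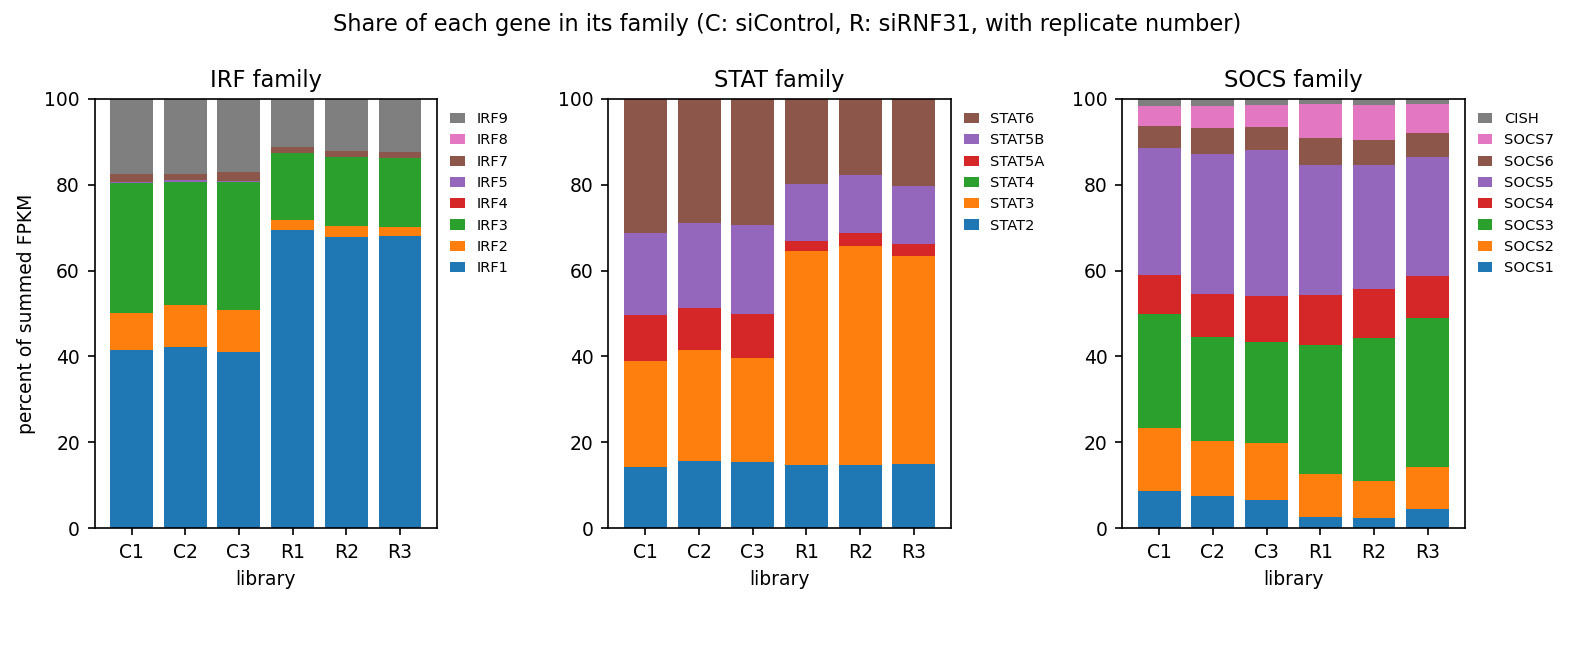
Share of each gene in the summed FPKM of the family members shown, in percent, with 1 stacked bar for each library of siControl (C1 to C3) and siRNF31 (R1 to R3). IRF1 takes 41.5% of the IRF sum in siControl and 68.5% in siRNF31, and STAT3 takes 24.9% and 49.8% of the STAT sum.

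The other family members were mixed. STAT6, the transducer of IL4 and IL13, fell from 21.8 ± 1.03 to 14.9 ± 0.951 FPKM (limma log2 fold change -0.52, adjusted p = 0.00017), so that STAT5A, STAT5B and STAT6 were all lower. STAT4 stayed at or below 0.10 FPKM and was not tested. Among the other SOCS genes, SOCS2, an inhibitor of growth hormone signalling, fell from 9.85 ± 0.431 to 6.39 ± 0.553 FPKM (log2 fold change -0.56), and SOCS7 rose from 3.52 ± 0.330 to 5.22 ± 0.529 (log2 fold change 0.46, adjusted p = 0.0019). CISH, a target and inhibitor of STAT5, went from 1.15 ± 0.026 to 0.820 ± 0.066 FPKM (adjusted p = 0.011). It reached 1 FPKM in siControl only, and its call was lost without the libraries that stood apart (adjusted p = 0.062). SOCS4, SOCS5 and SOCS6 did not pass, with log2 fold changes of 0.047, -0.21 and -0.013. SOCS5 passed without siControl replicate 1 (log2 fold change -0.30, adjusted p = 0.0058), and the sign of SOCS4 changed when that library was left out. The sign of SOCS6 changed under median of ratios scaling and quantile normalization, and without siControl replicate 2 or siRNF31 replicate 3.

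Of the JAK kinases, JAK2, which serves the interferon-gamma and growth hormone receptors, fell from 2.72 ± 0.368 to 1.62 ± 0.296 FPKM (limma log2 fold change -0.51, adjusted p = 0.0033). TYK2, a kinase of the type I interferon receptor, rose from 15.5 ± 0.287 to 19.0 ± 1.25 FPKM (log2 fold change 0.27, adjusted p = 0.0045). JAK1, which is shared by most of these receptors, measured 49.0 ± 4.27 and 46.4 ± 4.02 FPKM (log2 fold change -0.078, 95% interval from -0.27 to 0.12, adjusted p = 0.44). JAK3 stayed at or below 0.20 FPKM.

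Around the 9 genes, 12 lists of pathway genes were drawn up, which held 113 tested genes outside the 9. Of these 113, 18 were higher and 72 lower. Of all 11346 tested genes, 3022 (26.6%) were higher and 4141 (36.5%) lower. Some of the 113, given with their lists, reached 1 FPKM in 1 group only, as did 338 of all tested genes. The lists were drawn up with earlier results of these data known and are described by counts and medians only.

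Receptor chains for interferons and IL6-type cytokines were mostly lower, with 9 of 10 tested lower and 1 higher (median log2 fold change -0.71). OSMR, the oncostatin M receptor, fell from 63.7 ± 6.53 to 17.02 ± 1.504 FPKM, and IFNGR2, the signalling chain of the interferon-gamma receptor, from 62.7 ± 3.01 to 16.8 ± 0.352. IL10RB, a chain shared by the interferon-lambda and IL10 receptors, fell from 20.9 ± 1.40 to 5.35 ± 0.616 FPKM. IL6ST, which encodes gp130, fell from 82.0 ± 16.9 to 41.7 ± 7.82 FPKM. The single member that rose was IL6R, the ligand-binding chain for IL6 itself, which is named after its value was seen. Its log2 fold change was 0.28 (adjusted p = 0.015), but it did not pass when siControl replicate 2 (adjusted p = 0.058) or siRNF31 replicate 1 (adjusted p = 0.059) was left out.

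Of the ligands, 5 were tested, with 3 lower and 1 higher (median log2 fold change -0.65). IL6 fell from 334 ± 21.6 to 177 ± 5.23 FPKM, IL11 from 30.8 ± 2.05 to 19.3 ± 1.19 and CLCF1, a ligand of the ciliary neurotrophic factor receptor, from 14.2 ± 1.16 to 8.26 ± 0.862. IFNE, a type I interferon first known from epithelium of the female reproductive tract, went from 1.85 ± 0.407 to 2.63 ± 0.124 FPKM (adjusted p = 0.015). IFNB1, the interferon that IRF3 and IRF7 drive, stayed at or below 0.25 FPKM in every library and was not tested.

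Sensors and adaptors upstream of IRF3 and IRF7 included 7 that fell and none that rose among 11 tested (median log2 fold change -0.62). IKBKE, a kinase of IRF3 and IRF7, fell from 3.01 ± 0.321 to 0.790 ± 0.138 FPKM. MAVS, the mitochondrial adaptor of RNA sensors, fell from 14.3 ± 1.63 to 6.31 ± 0.155, STING1, the adaptor of DNA sensing, from 9.23 ± 0.446 to 4.84 ± 0.710 and the RNA sensor IFIH1 from 4.28 ± 0.268 to 2.13 ± 0.314. In this list 3 of the tested members, IKBKE among them, reached 1 FPKM in siControl only, and among the other 8 the count was 4 lower and the median -0.41.

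**Figure D4:**
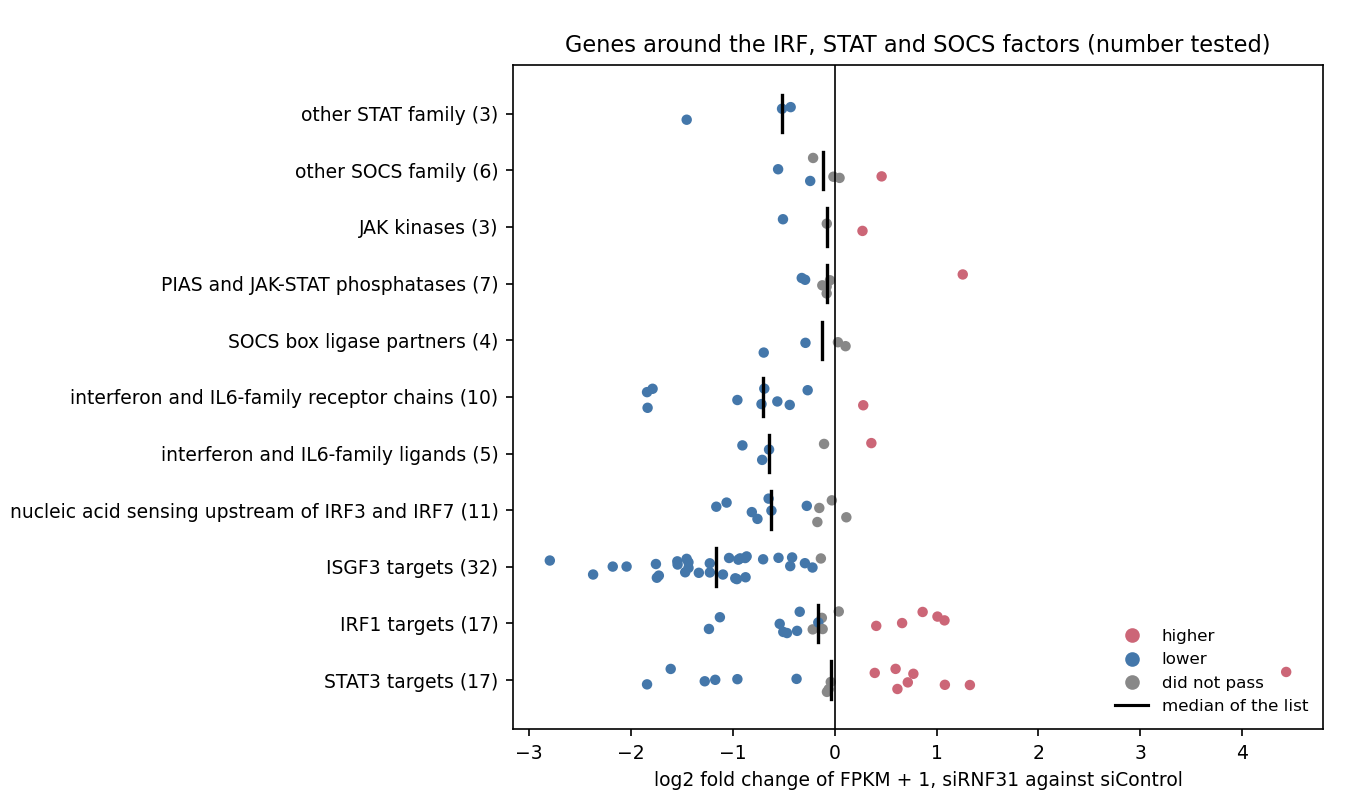
Log2 fold change of FPKM + 1 for every tested gene of the lists around the 9 genes, coloured by call, with the median of each list as a black bar and the number tested in brackets. ISGF3 targets lie to the left with a median of -1.16, while IRF1 and STAT3 targets spread to both sides of 0.

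Targets of the factors were looked at by list. Of 32 tested ISGF3 targets, 31 were lower, with a median log2 fold change of -1.16, and none was higher. The 1 that did not pass was UBE2L6, a conjugating enzyme for ISG15, at 40.8 ± 3.68 and 37.0 ± 2.52 FPKM (log2 fold change -0.14, adjusted p = 0.16), which was singled out after its value was seen. It passed under common sum scaling (adjusted p = 0.026) and without both libraries that stood apart (adjusted p = 0.043). Of these targets 6 reached 1 FPKM in siControl only, and among the other 26 the count was 25 lower. The largest falls were those of OAS1, IFITM1, MX1 and MX2, with log2 fold changes of -2.80, -2.37, -2.18 and -2.04, while IRF9 rose and STAT2 did not pass. MX2 is among the 6 that reached 1 FPKM in siControl only. IFITM1 shares sequence with close paralogs, so its value is uncertain.

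IRF1 targets were split, with 5 higher and 8 lower of 17 tested (median log2 fold change -0.16). CXCL10, among the lower, reached 1 FPKM in siControl only. Among the other 16 the count was 5 higher and 7 lower, with a median of -0.14. IDO1, which degrades tryptophan, rose from 3.48 ± 0.275 to 8.45 ± 0.400 FPKM, and CD274, the checkpoint ligand PD-L1, from 2.05 ± 0.205 to 5.15 ± 0.676. The immunoproteasome subunits PSMB10 and PSMB9 fell, by 1.24 and 1.13 on the log2 scale. STAT3 targets were split too, with 8 higher and 6 lower of 17 tested (median log2 fold change -0.039). The largest changes were FOS, an immediate early gene, at 4.43, OSMR at -1.84, the cyclin gene CCND1 at -1.61 and CEBPD, a factor of the acute phase response, at 1.33. FOS reached 1 FPKM in siRNF31 only, and without it the median of the list was -0.049.

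Further regulators act after the receptor. Of 7 tested PIAS proteins and phosphatases, 1 was higher and 2 lower. The gene that rose was PTPN11, which encodes the phosphatase SHP2, a partner of gp130 that SOCS3 competes with for its docking site. It measured 17.35, 20.41 and 23.23 FPKM in siControl and 55.57, 52.98 and 41.57 in siRNF31 (limma log2 fold change 1.26, adjusted p = 4.82e-05). The groups were well separated, with siControl replicate 1 and siRNF31 replicate 3 lowest in theirs. PTPN1, a phosphatase of JAK2 and TYK2, fell by 0.29 on the log2 scale and PIAS4, a SUMO ligase that restrains STAT signalling, by 0.32. Of the partners that join SOCS proteins in a ubiquitin ligase, ELOC fell from 142 ± 11.7 to 87.0 ± 6.95 FPKM (log2 fold change -0.70). ELOB fell by 0.29, and its call was lost without siRNF31 replicate 1 or 2 (adjusted p = 0.071 and 0.057) and with the replicate number as a block (adjusted p = 0.070).

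The genes whose profile over the 6 libraries lay closest to that of IRF1 were TUBB3, a beta-tubulin, CCN1, a matricellular protein, and PPP1R15A, a regulatory subunit that directs dephosphorylation of eIF2alpha. Likeness was the Euclidean distance between log2(FPKM + 1) values taken relative to the siControl mean, at 0.077, 0.089 and 0.10 for these 3. Their log2 fold changes were 1.65, 1.63 and 1.67. For SOCS1, the member with the largest fall, the nearest were PPT2, a lysosomal thioesterase gene, at 0.20, NFKBIE, an inhibitor of NF-kB, at 0.21, and OBSL1, a cytoskeletal adaptor, at 0.22. With 6 libraries in 2 groups such distances mostly reflect the size of the difference between the groups.

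Other direct neighbours of the 9 genes showed no common direction. SLC22A5, a carnitine transporter gene beside IRF1, fell from 4.35 ± 0.347 to 2.44 ± 0.189 FPKM. CLEC16A, which lies beside SOCS1, rose from 4.47 ± 0.268 to 6.39 ± 0.180 FPKM, while PGS1 beside SOCS3 fell from 10.6 ± 0.348 to 6.81 ± 0.661. PHRF1 beside IRF7 was called higher by 0.18 on the log2 scale, a call that was lost without siControl replicate 2 or siRNF31 replicate 2 or 3 and with the replicate number as a block.

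**Figure D5:**
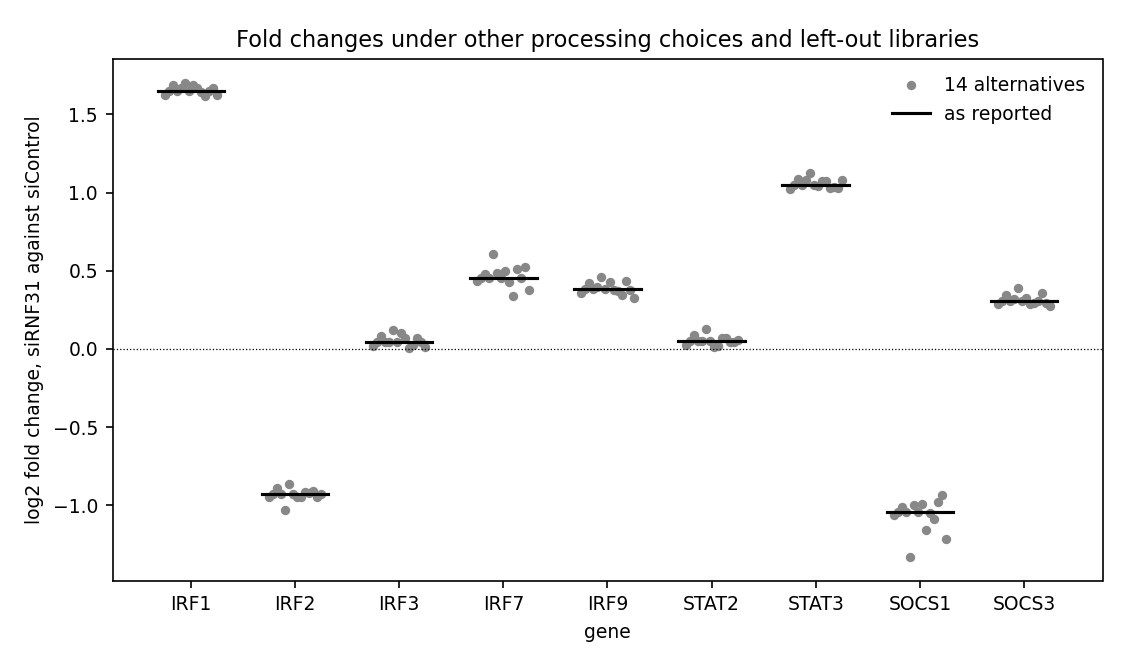
Log2 fold change of the 9 genes as reported (bars) and under 14 alternatives of scaling, filtering, pseudocount, variance model, blocking and left-out libraries (dots). SOCS1 has the widest spread, from -1.33 to -0.94, and IRF3 and STAT2 reach at most 0.1183 and 0.1246.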

How the data were processed

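Expression was deposited as 1 table per library, with values in FPKM, per the file headers, printed to 2 decimals. Total RNA was taken up in Trizol and sequenced under BGISEQ-500 protocols, per the labels' protocols. For the aligner, quantification program, genome build, annotation and use of strand, the sources used here give nothing. The tables hold no gene lengths and the low values were not resolved into whole reads, so depth is unknown and no counting interval is given. Of 17645 Gene IDs, 17577 were found in the RefSeq table for GRCh38.p14, used for names and gene order.

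Values were transformed to log2(FPKM + 1), and the 11346 genes at 1 FPKM or more in at least 3 of 6 libraries were compared with limma 3.58.1 (R 4.3.3, intensity trend, robust moderation). Two-sided p-values were adjusted by Benjamini-Hochberg over all of them. Fold ratios are ratios of mean FPKM. The labels do not tell whether replicates came from separate cultures. The p-values reflect the spread among these libraries alone, and that spread may be technical. On simulated data for this comparison, with 200 of 11346 genes changed, limma called 69% of 1.5-fold and 92% of 2-fold changes. Of all calls there, 4.73% were unchanged genes. The simulated noise was drawn for each gene alone, and in the data 63.1% of tested genes were called. The settings thus differ, and these rates may not carry over to the data.

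The members, lists and tests were chosen with earlier results of these data known. Named besides the members were RNF31, other IRF, STAT, SOCS and JAK genes, up to 4 called genes with the largest change per other list, called neighbours of the members and the 3 most alike genes (mean FPKM of at least 2) of the members with the largest rise and fall. Some genes that this rule names are not reported here, and lists and family sums leave them out. RIGI was matched to its row by Gene ID. IFNK, IFNL2, IFNL3, IFNG and CH25H had no row in the tables used here. Figures were drawn with matplotlib 3.10.9, and shares were tested with scipy 1.17.1 under Python 3.11.15.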

Additional observations from a re-analysis of the deposited data

How the results depend on the processing

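All 9 members kept their direction and their side of the threshold under 14 alternatives: another pseudocount (0.1), all genes without the low-value filter, scaling by median of ratios, common sum or quantiles, limma without trend and robust moderation, the replicate block, each library left out in turn, and, chosen after the data were seen, siControl replicate 1 and siRNF31 replicate 3 left out together. The members' adjusted p was at most 0.02549 for the 7 that passed and at least 0.08718 for IRF3 and STAT2. Over these settings 2480 to 3529 genes were higher and 3497 to 4513 lower. With the replicate block 5 members were higher and 2 lower as before, and over all genes 2480 were higher and 3497 lower. Deviations of same-numbered libraries from their group means had correlations of -0.57, 0.12 and -0.63 for replicates 1, 2 and 3. The highest correlation, 0.675, was that of siControl replicate 1 with siRNF31 replicate 3, the libraries that stood apart. With these 2 libraries apart, such correlations cannot settle whether the number pairs libraries, and the labels do not tell. Of 55 other named genes, 6 had a call that changed, all given in the report. The SOCS4 log2 fold change ran from -0.0342 to 0.1283 with 1 library left out, and the SOCS6 log2 fold change from -0.0836 to 0.0467. SOCS4 reversed without siControl replicate 1. SOCS6 reversed without siControl replicate 2 or siRNF31 replicate 3, to 0.0202 under median of ratios scaling and to 0.0423 under quantile normalization. None of these values passed, and the cause was not tested. Depth is unknown, which limits what can be said of genes near 1 FPKM such as IRF7 and CISH.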

Other observations

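In 5 of the 9 members (IRF1, IRF3, IRF9, SOCS1 and SOCS3), siControl replicate 1 was the highest control and siRNF31 replicate 3 the highest silenced library. STAT2 had both of them lowest in their group. Over all 11346 tested genes these libraries were both highest in 33.4% and both lowest in 29.3%, so the order seen in the members is common in the tables. Among 113 tested pathway genes, both were lowest in 32, among them JAK1, JAK2, IL6ST, OSMR, LIFR, SOCS5 and PTPN11, and both were highest in 30. IL6ST, for example, measured 64.07, 84.35 and 97.62 FPKM in siControl and 46.55, 45.84 and 32.67 in siRNF31. What sets these libraries apart was not tested.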
